A study of Mus musculus with 158 samples.

Results

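Dlx1, Dlx2, Dlx5, Dlx6, the antisense RNA Dlx6os1, Lhx6 and Maf were followed through RNA counts of individually collected mouse brain cells. The 7 genes were chosen by symbol, as the best known transcription factor genes of forebrain interneurons plus the RNA gene that lies beside Dlx5 and Dlx6, and they are 7 of the 21956 gene rows of the count table. No measured value entered the rule, but the choice was made with earlier results of these data known. Dlx6os1 is listed in the table under its older symbol Dlx6as1.

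Each of 149 cells was drawn singly into a patch pipette, its polyadenylated RNA went through 3 rounds of aRNA amplification (copying into antisense RNA), and 158 sequencing libraries were made. Cultured hippocampal neurons were 8 cells of strain C57/BL6, all kept for 15 days in culture. Neurons of acute slices came from strain C57/BL6/N and were 5 cells of hippocampal area CA3, 15 cells of area CA1 and 22 cells of cortex. Cultured cortical neurons were 13 cells of C57/BL6/N, with 3 cells of 6 days, 3 of 10 days, 4 of 13 days and 3 of 15 days in culture. Cultured cortical astrocytes were 86 cells, with 3 of C57/BL6 at 7 days and, of C57/BL6/N, 70 at 12 days, 5 at 14 days and 8 at 15 days. None of the cells was treated. No animal, donor or culture is named in the labels, so each group counts as 1 sample, no difference between groups has a replicate check, and no p-value or standard error is given. Cells were picked one by one with the pipette, so the share of cells holding a gene is not a share of the tissue, and the hippocampal cultures also differ from the cortical cultures in strain.

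In the embryonic forebrain, GABA-releasing interneurons are born in the ganglionic eminences and migrate into cortex and hippocampus. Dlx1, Dlx2, Dlx5 and Dlx6 encode homeodomain proteins that drive this fate, with Dlx1 and Dlx2 acting before Dlx5 and Dlx6. Dlx6os1, also known as Evf2, is a long non-coding RNA transcribed against Dlx6. Lhx6 encodes a LIM homeodomain protein that acts below Nkx2-1 in cells of the medial ganglionic eminence, the source of parvalbumin and somatostatin interneurons. Maf encodes a bZIP protein that acts in the same lineage, and it is also made by microglia and other macrophages.

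The Dlx genes lie in neighbouring pairs in the GRCm38 assembly (GENCODE vM21 annotation). Dlx1 (ENSMUSG00000041911.3) covers chr2:71528113-71533981 on the plus strand, and Dlx2 (ENSMUSG00000023391.8) covers chr2:71543408-71546754 on the minus strand, 9426 bases away. Dlx6 (ENSMUSG00000029754.13) covers chr6:6863334-6868568 on the plus strand, and Dlx5 (ENSMUSG00000029755.10) covers chr6:6877805-6882085 on the minus strand, 9236 bases from it. Dlx6os1 (ENSMUSG00000090063.6) covers chr6:6820189-6871592 on the minus strand and runs across Dlx6, but the exons of these genes share 0 bases. Lhx6 (ENSMUSG00000026890.19) covers chr2:36081953-36105408 on the minus strand, and Maf (ENSMUSG00000055435.6) covers chr8:115682942-115707794 on the minus strand. Another antisense gene, Dlx1as, shares 335 exon bases with Dlx1, or 6.21% of the exon bases of Dlx1. Dlx6os2 likewise shares 104 exon bases with Dlx6, or 4.38% of those of Dlx6. The strand setting of the counting is not stated in these sources, so reads of a gene and of its antisense partner cannot be told apart where their exons overlap.

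The 250 bases before the RefSeq transcription start are shown for the neighbouring Dlx1 and Dlx2 and for both RefSeq starts of Dlx6os1. These genes were taken because Dlx6os1 was detected mostly in cells with Dlx1. The Dlx1 and Dlx6os1 windows lie inside the GENCODE spans given above, as the RefSeq starts differ from the GENCODE starts. RefSeq (GRCm38.p6) listed windows for 4 of the 7 genes, which were Dlx1, Dlx2, Dlx6os1 and Lhx6. Each line runs 5′ to 3′ on the strand of its gene, and capitals mark TAATTA, the core motif bound by many homeodomain proteins including those of the Dlx family, which reads the same on both strands.
Dlx1, chr2:71529195-71529444, plus strand: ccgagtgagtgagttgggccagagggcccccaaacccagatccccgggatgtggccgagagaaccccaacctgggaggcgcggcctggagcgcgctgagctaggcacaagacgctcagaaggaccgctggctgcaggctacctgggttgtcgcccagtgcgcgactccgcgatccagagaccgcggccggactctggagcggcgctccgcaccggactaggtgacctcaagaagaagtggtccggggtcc
Dlx2, chr2:71546755-71547004, minus strand: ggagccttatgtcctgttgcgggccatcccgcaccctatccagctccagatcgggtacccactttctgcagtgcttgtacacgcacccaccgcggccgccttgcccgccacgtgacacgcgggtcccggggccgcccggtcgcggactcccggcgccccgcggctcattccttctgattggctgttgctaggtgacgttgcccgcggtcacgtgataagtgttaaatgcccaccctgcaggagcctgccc
Dlx6os1, chr6:6861684-6861933, minus strand: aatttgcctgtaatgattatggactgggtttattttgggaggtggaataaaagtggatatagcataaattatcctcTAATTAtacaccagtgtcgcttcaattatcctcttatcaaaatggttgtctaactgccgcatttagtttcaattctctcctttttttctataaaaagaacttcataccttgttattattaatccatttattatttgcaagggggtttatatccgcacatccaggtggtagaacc
Dlx6os1, chr6:6869534-6869783, minus strand: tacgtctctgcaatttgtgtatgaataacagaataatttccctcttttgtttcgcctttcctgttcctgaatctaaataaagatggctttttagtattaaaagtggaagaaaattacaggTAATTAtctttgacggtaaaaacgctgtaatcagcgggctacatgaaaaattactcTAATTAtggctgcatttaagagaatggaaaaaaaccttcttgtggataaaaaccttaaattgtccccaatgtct
TAATTA was found in both windows of Dlx6os1, with 1 copy and 2 copies, and in none of the other 5 windows of these genes. Among 32851 promoter windows of the same length, 4.84% held it. The Dlx6os1 windows were also poor in G and C, at 34% and 33.2% of bases, against 68% in the Dlx1 window and 66.4% in the Dlx2 window. A match describes the letters only, and binding was not measured.

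Library totals ran from 535369 to 38680739 counts. A level is the count of a gene summed over the cells of a group, per 1000000 summed counts of the group (CPM), with a 95% exact Poisson interval that covers counting error only. Shares of cells carry 95% Clopper-Pearson intervals, which take cells as independent draws and do not cover variation between animals or cultures. A gene was called detected in a cell when at least 5 of 1000000 counts drawn at random from that cell belonged to it. The CA1 cell CA1_29, with 535369 counts, fell below this depth, so CA1 shares are of 14 cells while CA1 levels are of 15. At this equal depth the median number of genes detected per cell differed between groups, at 7497.5 in cultured hippocampal neurons, 2180 in CA3, 1909 in CA1, 1813 in cortical slice neurons, 4459 in cultured cortical neurons and 4931 in astrocytes. The part of this difference in the results was not tested. The neuronal marker Snap25 was detected in 8 of 8 cultured hippocampal neurons, 5 of 5 CA3, 12 of 14 CA1, 17 of 22 cortical slice and 11 of 13 cultured cortical neurons, and in 0 of 86 astrocytes, while the glutamate transporter gene Slc1a3 was detected in 80 of 86 astrocytes. More astrocyte markers than neuron markers were detected in 3 cultured cortical neurons, 2 cortical slice neurons and 1 CA1 neuron.

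In all, 6 of the 7 genes were detected in at least 1 neuron, Dlx6 being the exception. The same 6 were detected in cultured hippocampal and in cultured cortical neurons, in different shares of cells, and none in CA3. Cultured hippocampal neurons held Dlx1, Dlx6os1, Lhx6 and Maf in 8 of 8 cells, Dlx2 in 7 and Dlx5 in 6. Cultured cortical neurons held mainly Dlx1, in 9 of 13 cells. Slice neurons held a Dlx gene (Dlx6os1 counted among them) in 2 of 22 cortical, 2 of 14 CA1 and 0 of 5 CA3 cells, and astrocytes held mainly Maf, in 63 of 86 cells.

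**Figure D1:**
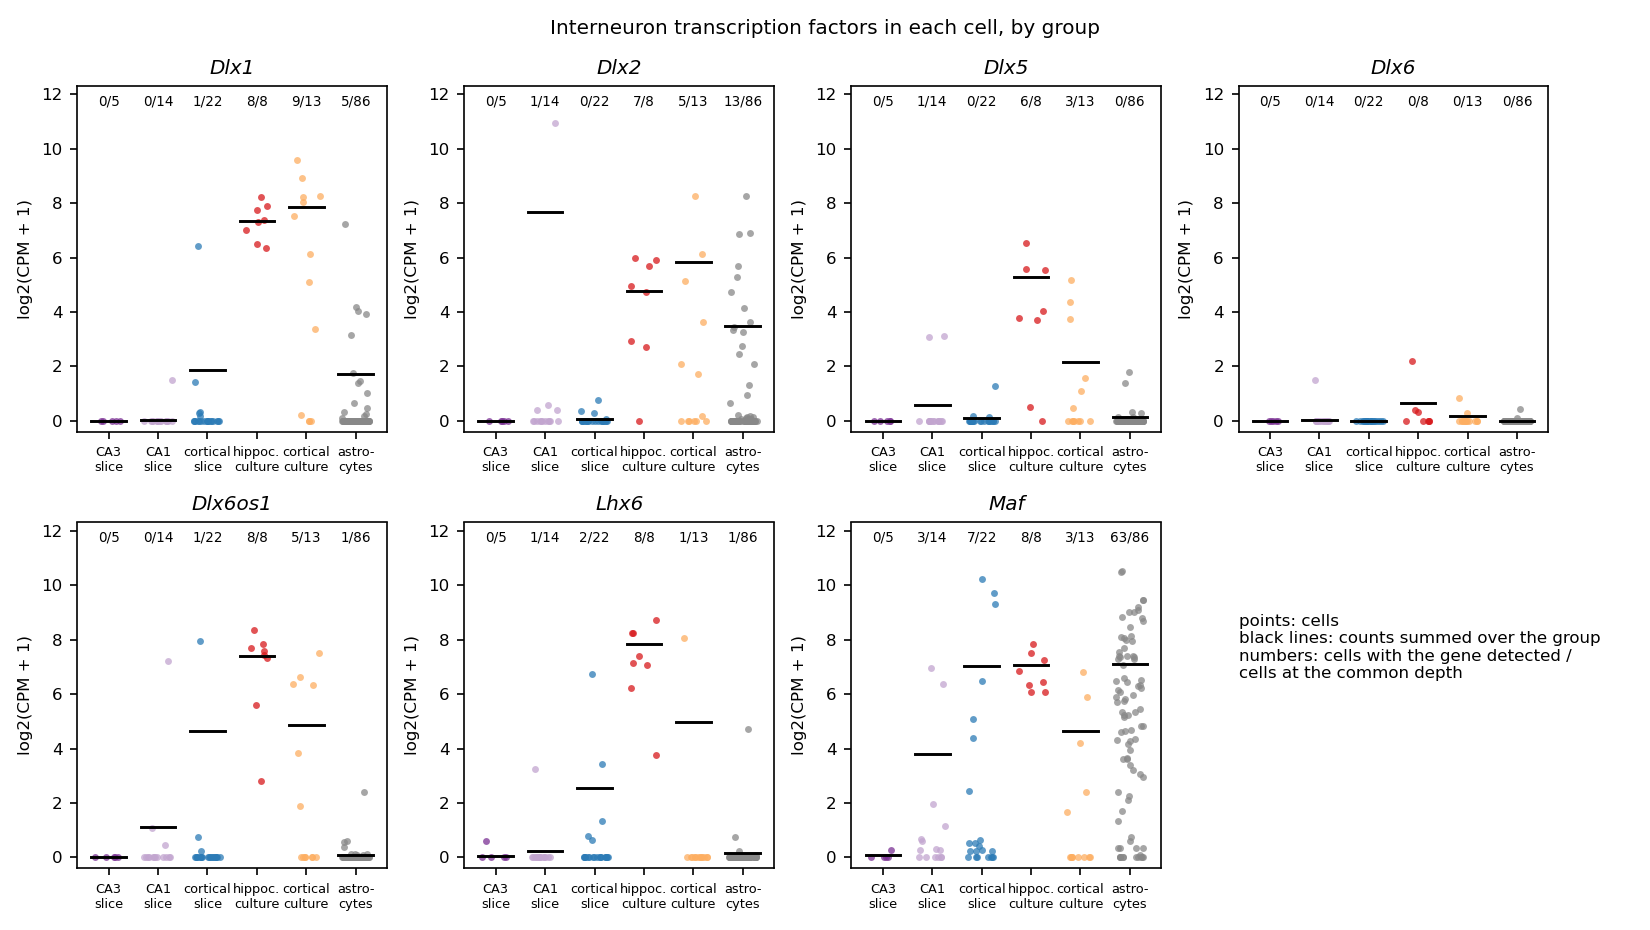
Level of each gene per cell, as log2(CPM + 1) on the vertical axis, for the 6 groups on the horizontal axis (CA3, CA1 and cortical slice neurons, hippocampal and cortical cultured neurons, astrocytes). Each point is a cell, each black line is the level summed over the group, and the fraction printed over each group gives cells with the gene detected over cells at the common depth; Dlx1, Dlx6os1, Lhx6 and Maf were detected in 8 of 8 cultured hippocampal neurons, while most slice cells lie at 0 for the Dlx genes.

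Dlx1, which with Dlx2 starts the interneuron programme, reached 163 CPM in cultured hippocampal neurons (95% interval 161 to 166), with 79.9, 160.5 and 294 CPM as the lowest, median and highest cell. In cultured cortical neurons it reached 233.5 CPM (231 to 236), with 0, 68.8 and 768 CPM as the lowest, median and highest cell, and 53.9% of the counts came from the 10-day cell 2016R5N_23. All hippocampal cells were thus positive within a narrow range, while the cortical cells ran from none to a value above every hippocampal cell, and the ranges overlapped. Dlx1 had no count in the 5 CA3 cells and 1 count in CA1, in CA1_29. It reached 2.62 CPM in cortical slice neurons, where 94.5% of the counts lay in the cell F11 at 85.9 CPM, and 2.26 CPM in astrocytes, where the highest cell had 150.1 CPM. The share of cells with Dlx1 was 100% in cultured hippocampal neurons (63.1 to 100%), 0% in CA3 (0 to 52.2%), 0% in CA1 (0 to 23.2%), 4.55% in cortical slices (0.115 to 22.8%), 69.2% in cultured cortical neurons (38.6 to 90.9%) and 5.81% in astrocytes (1.91 to 13.0%). Before the draw to equal depth, at least 1 count was present in 8 of 8 cultured hippocampal, 0 of 5 CA3, 1 of 15 CA1, 5 of 22 cortical slice and 10 of 13 cultured cortical neurons and in 15 of 86 astrocytes. Its antisense neighbour was also highest in the cultures. Dlx1as reached 311 CPM in cultured hippocampal neurons (8 of 8 cells) and 78.4 CPM in cultured cortical neurons (4 of 13). There 83.6% of its counts came from 2016R10N_23, at 573 CPM and with 9.45 CPM of Dlx1, and the level without that cell was 14.6 CPM. In cortical slices Dlx1as was detected in F7 at 189 CPM and P2 at 38.2 CPM, neither of which held Dlx1.

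Dlx2, the neighbour and close relative of Dlx1, was more uneven between cells. It reached 26.4 CPM in cultured hippocampal neurons, with 0, 27.9 and 62.7 CPM as the lowest, median and highest cell, and 55.8 CPM in cultured cortical neurons, with 0, 0.119 and 304 CPM. The cell 2016R5N_23 gave 89.4% of the counts of cultured cortical neurons, so the higher summed level there came with a lower median cell. In CA1 the level was 202 CPM, the highest of any group, and 99.97% of it came from the cell CA1_20 at 1986 CPM. In CA3 there was no count, in cortical slices 0.0526 CPM and in astrocytes 10.3 CPM, with a highest astrocyte of 303 CPM. Dlx2 was detected in 7 of 8 cultured hippocampal, 0 of 5 CA3, 1 of 14 CA1, 0 of 22 cortical slice and 5 of 13 cultured cortical neurons, and in 13 of 86 astrocytes. The share was 15.1% (8.30 to 24.5%) in astrocytes and 38.5% (13.9 to 68.4%) in cultured cortical neurons, each group being 1 sample. Apart from 1 cell, the 13 astrocytes held Dlx2 without detected Gad1, the GABA-making enzyme gene. Unthinned, at least 1 Dlx2 count was present in 7 of 8 cultured hippocampal, 0 of 5 CA3, 4 of 15 CA1, 4 of 22 cortical slice and 7 of 13 cultured cortical neurons and 26 of 86 astrocytes.

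Dlx5, which acts after Dlx1 and Dlx2, was highest in the cultured hippocampal neurons. It reached 37.7 CPM there, with 0, 14.1 and 92.6 CPM as the lowest, median and highest cell, and was detected in 6 of 8. In cultured cortical neurons it reached 3.51 CPM with a median of 0 and a highest cell of 34.9 CPM, and was detected in 3 of 13. The ranges of the cultured groups overlapped, since 2 hippocampal cells, M9D and P1S, had 0.430 and 0 CPM. Levels elsewhere were 0 in CA3, 0.514 CPM in CA1, 0.0657 CPM in cortical slices and 0.106 CPM in astrocytes, with detection in 1 CA1 cell, CA1_35, at 7.71 CPM. Dlx6, its neighbour, was not detected in any cell at the common depth. Its highest cell was the hippocampal M6S at 3.60 CPM, and its level was 0.580 CPM in cultured hippocampal neurons, 0 in CA3, 0.0128 CPM in CA1 from 1 count, 0 in cortical slices, 0.119 CPM in cultured cortical neurons and 0.00157 CPM in astrocytes from 2 counts. In 0 of 22 cortical slice cells the upper limit of the share with Dlx6 was 15.4%, and in 0 of 8 hippocampal cells it was 36.9%.

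Dlx6os1, the antisense RNA of that locus, was abundant in the cells where Dlx6 itself was not detected. Cultured hippocampal neurons had 169 CPM, with 6.00, 181 and 322 CPM as the lowest, median and highest cell, and all 8 held it. Cultured cortical neurons had 28.2 CPM, with a median of 0 and a highest cell of 180.5 CPM, and 5 of 13 held it. Cortical slice neurons had 24.2 CPM, of which 99.9% came from the cell F1 at 248 CPM. CA1 had 1.14 CPM, of which 87.6% were the 78 counts of CA1_29, the cell of lowest depth, CA3 had no count, and astrocytes had 0.0541 CPM with detection in 1 of 86. The level of Dlx6os1 in cortical slices was thus close to that of cultured cortical neurons in sum, but it rested on 1 of 22 cells against 5 of 13.

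Lhx6, the medial eminence regulator, was detected in every cultured hippocampal neuron. They had 227 CPM (95% interval 224 to 230), with 12.7, 154 and 422 CPM as the lowest, median and highest cell. Cultured cortical neurons had 30.2 CPM, and all 6317 counts lay in the 13-day cell 2016R10N_23 at 264 CPM, the other 12 cells being at 0. The lowest hippocampal cell was therefore above 12 of the 13 cortical cells, and the groups overlapped through 1 cell. Cortical slice neurons had 4.86 CPM, with 107 CPM in F2 and 9.71 CPM in F6. CA1 had 0.193 CPM, all from CA1-18 at 8.45 CPM, CA3 had 1 count, and astrocytes had 0.119 CPM, with 145 of 152 counts in J324_1 at 25.1 CPM. Lhx6 was detected in 8 of 8 cultured hippocampal, 0 of 5 CA3, 1 of 14 CA1, 2 of 22 cortical slice and 1 of 13 cultured cortical neurons and in 1 of 86 astrocytes.

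Maf had the widest reach of the 7 genes. Cultured hippocampal neurons had 131 CPM, with 66.4, 100.5 and 228 CPM as the lowest, median and highest cell and detection in 8 of 8. Astrocytes had 136 CPM, with 0, 39.6 and 1459 CPM as the lowest, median and highest cell and detection in 73.3% (62.6 to 82.2%). Cortical slice neurons had 128 CPM, but a median cell of 0.271 CPM: P4 had 1203 CPM, P33 832 CPM, F6 635 CPM, P16 87.8 CPM, F1 33.1 CPM, P2 20.1 CPM and RS10 4.44 CPM, and the other 15 cells did not reach detection. These group levels were near each other while the spread over cells was not. Cultured cortical neurons had 23.8 CPM, from 2016R10N_23 at 110 CPM, 2016R5N_23 at 58.5 CPM and J8_23 at 17.2 CPM. CA1 had 12.9 CPM, from CA1_41 at 123 CPM, CA1_20 at 82.4 CPM and CA1-4 at 2.90 CPM, and CA3 had 2 counts, or 0.0729 CPM.

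In the order of levels, cultured hippocampal neurons ranked above all other groups for Dlx5, Dlx6, Dlx6os1 and Lhx6, cultured cortical neurons for Dlx1, CA1 for Dlx2 and astrocytes for Maf. Between neighbours in these orders the ranges of single cells overlapped in every case, so no step in the order exceeded the spread between cells. For Maf the counting intervals of astrocytes (136 to 137 CPM) and of the next group, cultured hippocampal neurons (129 to 134 CPM), did not overlap, while those of cultured hippocampal neurons and of cortical slices (126 to 130 CPM) did.

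Cell by cell, the cultured hippocampal neurons held most of the genes together. M1D, M1S, M6S, M9S, N5S and P2S each held 6 of the 7 genes, M9D held 5, without Dlx5, and P1S held 4, without Dlx2 and Dlx5. The levels did not run in parallel. M9D had 62.7 CPM of Dlx2, the highest of the 8, with 12.7 CPM of Lhx6, the lowest. M1S had 92.6 CPM of Dlx5 and 79.9 CPM of Dlx1, the highest and the lowest of the group. N5S had the highest Lhx6, at 422 CPM, and P1S the highest Dlx6os1, at 322 CPM. The number of genes held was 6 in the median hippocampal cell, 0 in the median cell of CA3, of CA1 and of cortical slices, 2 in the median cultured cortical neuron and 1 in the median astrocyte. The titles M1D with M1S, and M9D with M9S, share a number, which the labels do not explain, and each was counted as a cell.

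Among the cultured cortical neurons, 11 of 13 cells held at least 1 of the genes and 10 held a Dlx gene. Most of them held few: 4 cells held 1 gene, 3 held 2, 2 held 3, 1 held 4 and 1 held 6. The cell with 6 was 2016R10N_23, which had 264 CPM of Lhx6, 110 CPM of Maf, 78.6 CPM of Dlx6os1, 12.5 CPM of Dlx5, 9.45 CPM of Dlx1 and 3.30 CPM of Dlx2. With 6449 CPM of Gad1, it held the same 6 genes as the fullest hippocampal cells. 2016R5N_23 held the highest Dlx1 and Dlx2 together, at 768 and 304 CPM, without Lhx6 or Dlx5. All 7 cells with Gad1 held a Dlx gene, and 3 cells held a Dlx gene without detected Gad1. Of these, J10_11 had 482 CPM of Dlx1 with 0.455 CPM of Gad1 and 109 CPM of Gad2, 2016R3N_6 had 34.6 CPM of Dlx2 with 0.307 CPM of Gad1, and 2016R9N_19 had 33.6 CPM of Dlx1 and 11.5 CPM of Dlx2. This last cell is 1 of the 3 cultured cortical neurons with more astrocyte than neuron markers, at 14 of 15 against 12 of 15.

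Among slice cells at the common depth, which leaves out CA1_29, all 4 cells with a Dlx gene held Gad1. Most cells with Gad1 held no Dlx gene. Gad1 was detected in 4 of 14 CA1 and 7 of 22 cortical slice cells, and 2 cells of each area held Gad1 with a Dlx gene. In CA1 these were CA1_20, with 6295 CPM of Gad1, Dlx2 and Maf, and CA1_35, with 662 CPM of Gad1 and Dlx5. In cortex, F1 held Dlx6os1 and Maf with 5143 CPM of Gad1, and F11 held Dlx1 with 18.9 CPM of Gad1. F6 and F2, with 8713 and 2357 CPM of Gad1, held Lhx6 without a Dlx gene. F7, with 1092 CPM of Gad1, held none of the 7 genes at detection, as did P14, P22, CA1-3 and CA1-17. F7 came close, with 4 of the 5 drawn Dlx1 counts needed for detection, and it held Dlx1as at 189 CPM. P22 had 605 CPM of Gad1. It held 98.95% of the Gad1 counts of cortical slice cells whose titles begin with P, so P14 held few of them. The GABA gene Slc32a1 was detected in 0 of these 16 cells. The CA3 cells held neither Gad1 nor any of the 7 genes.

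**Figure D2:**
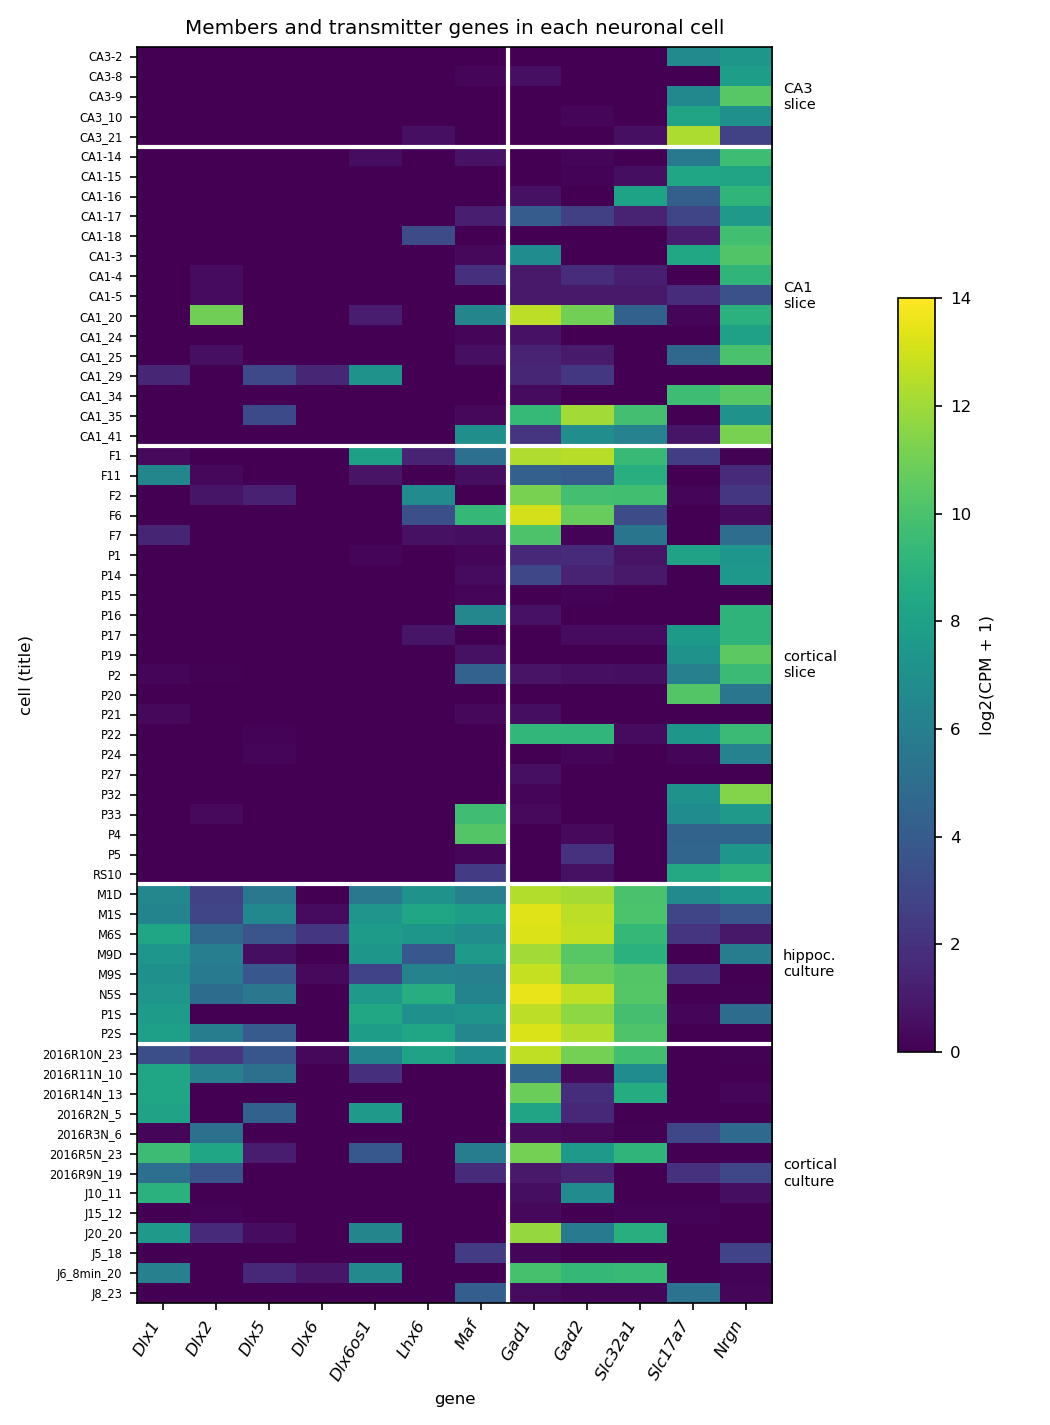
Heat map of log2(CPM + 1) for 63 neuronal cells (rows, grouped as CA3, CA1 and cortical slice neurons, cultured hippocampal neurons and cultured cortical neurons) and the 7 genes beside Gad1, Gad2, Slc32a1, Slc17a7 and Nrgn (columns). The 8 cultured hippocampal rows are filled across most of the genes and the GABA genes. The 5 CA3 rows are blank for both, and the cultured cortical rows are mostly filled for Dlx1. Slc17a7, the vesicular glutamate transporter gene, was also detected in 4 of the 8 cultured hippocampal neurons.

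Over the 62 neurons at the common depth, Dlx1 was detected in 18, Dlx2 in 13 and both in 11. Dlx6os1 was detected in 14, of which 13 also held Dlx1. Gad1, detected in 26 neurons, was present in all 14 cells with Dlx6os1, all 10 with Dlx5, 11 of 12 with Lhx6, 16 of 18 with Dlx1, 11 of 13 with Dlx2 and 13 of 21 with Maf. Thus, among these 62 neurons, Dlx6os1 and Dlx5 were detected in no cell without Gad1, and Maf was the least bound to it. CA1_29, below the common depth, is not among them. It had 145.7 CPM of Dlx6os1 and 7.47 CPM of Dlx5. Slc17a7, the vesicular glutamate transporter gene, was detected together with a Dlx gene in 4 of 8 cultured hippocampal neurons. The same held in 1 of 13 cultured cortical neurons and in no slice neuron. Across 63 neurons Pearson's r of log2(CPM + 1) was 0.516 between Dlx1 and Dlx2 and 0.688 between Dlx1 and Dlx6os1. It was 0.711 between Dlx6os1 and Gad1, and -0.398 between Dlx1 and Slc17a7. These cells share amplification, library kit and, within a group, culture or slice, they fall into groups, and the values are descriptions only.

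Genes whose levels over the 63 neurons were most like those of each member were ranked among 9605 genes, and those named here were among its top 5. For Dlx1 they were Sox1 (r = 0.826), Tcerg1l (0.811), Ubash3b (0.806), Kdm1a (0.755) and Sp9 (0.751). For Dlx2 they were Wdr91 (0.746), Tbc1d12 (0.745), Gbe1 (0.717), Zdhhc18 (0.680) and Tmem206 (0.675), and for Dlx5 Mus81 (0.828), Dlx1as (0.754), Cuedc1 (0.752), Abcf2 (0.741) and Lrrc41 (0.730). For Lhx6 they were Galntl6 (0.908), Nxph1 (0.869), Zfr2 (0.863) and Pnoc (0.853), of which Pnoc encodes a neuropeptide precursor and Nxph1 a secreted neurexin ligand. For Dlx6os1 they were Sh3rf3 (0.754), Rcan3 (0.745), Ndufaf3 (0.742), Afap1 (0.730) and Arf5 (0.727), with Gad1 in place 16. For Maf they were Klc2 (0.724), Rab11fip5 (0.720), Tmem178 (0.719) and Tm2d2 (0.694). When only cultured neurons were used, 2 of the top 5 of Lhx6 and 1 each of Dlx1, Dlx5 and Dlx6 were again among the top 5. For Dlx2, Dlx6os1 and Maf it was 0. When only slice cells were used, the counts were 2 for Maf and 0 for each other member, Lhx6 included. Only the 5478 genes detected in at least 6 slice cells were ranked there, so genes found mostly in culture could not return. Among slice cells Dlx1, Dlx2, Dlx5 and Dlx6os1 were each detected in 1 cell and Lhx6 in 3. The slice counts therefore cannot decide whether these likenesses hold in slices. With Spearman’s rho over all 63 neurons the counts were 4 for Lhx6, 3 for Dlx1, 2 for Dlx5 and Dlx6, 1 for Dlx6os1 and Maf and 0 for Dlx2. Dlx6 was detected in 0 neurons, so its list, which is not given, rests on counts below detection.

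In all, 5 comparisons between groups were made, and they share groups: cultured cortical neurons enter 3 of them, cortical slice neurons 2 and CA1 neurons 2. Genes with fewer than 10 counts over the groups compared, or present in fewer than 3 cells, were left unmeasured. A gene was called when the log2 ratio of the levels, each with 1 CPM added, was at least 1 in size, with no test.

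Cultured hippocampal neurons against cultured cortical neurons gave higher levels of most of the 7 genes. Lhx6 had 227 against 30.2 CPM (log2 ratio 2.87), Dlx5 37.7 against 3.51 CPM (3.10), Dlx6os1 169 against 28.2 CPM (2.54) and Maf 131 against 23.8 CPM (2.42). Dlx2 had 26.4 against 55.8 CPM (-1.05), Dlx1 163 against 233.5 CPM (-0.51), and Dlx6 0.580 against 0.119 CPM (0.50). So 4 of 7 were called higher, against 30.3% of all 13485 genes, and 1 of 7 lower, against 25.3%. In either direction 55.6% of all genes were called. The median log2 ratio was 2.42 for the 7 genes and 0.15 for all measured genes. Dlx2 did not keep its direction: without the cell that held most of its counts in each group it had 22.2 against 7.05 CPM, and with cortical cells of 15 days alone, the age of all the hippocampal cells, the log2 ratio was 4.77. Of those 3 cortical cells, J5_18 and J8_23 held a larger share of the astrocyte than of the neuron markers. All 3 were base-called with bcl2fastq and all 8 hippocampal cells with its successor bcl2fastq2. At 15 days alone, the kind of culture therefore cannot be told apart from that version. As a mean of the cells' own CPM, the Dlx2 log2 ratio was -0.11 and no longer called. Dlx1 also turned, with log2 ratios of 0.16 and 2.41 under these settings. Lhx6 without its top cells had 203 against 0 CPM. Markers of other cell types also differed between these cultures. In hippocampal cells 14 of 15 astrocyte, 7 of 10 microglia, 6 of 8 oligodendrocyte precursor and 6 of 7 oligodendrocyte markers were called lower, and 9 of 15 neuron markers higher. Without the 3 cortical cells that held more astrocyte than neuron markers, the count of the 7 genes called was again 4 higher and 1 lower, with Lhx6 at 2.55, Dlx5 at 2.84, Dlx6os1 at 2.23, Maf at 2.20 and Dlx2 at -1.36.

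Other genes of the interneuron programme were set beside them. Of 18 other transcription factors of interneuron lineages, 14 were measured, 4 were called higher and 4 lower in hippocampal cells (median log2 ratio 0.25). Nkx2-1, which switches on Lhx6, had 25.9 CPM in cultured hippocampal neurons with detection in 5 of 8 cells, against no count in 13 cultured cortical neurons. It was at least 1808-fold higher taking 3 counts over the group as the floor. The 5 cells were M1D, M1S, M6S, M9D and M9S, at 23.2 to 104.8 CPM, while N5S, P1S and P2S had no count. The labels do not explain these title letters. Sp8, a factor of the lateral and caudal eminences, had 0.0341 CPM (0 of 8 cells) against 52.8 CPM (6 of 13), the highest being 2016R11N_10 at 549 CPM. Its relative Sp9 had 49.97 CPM (7 of 8) against 30.7 CPM (5 of 13). Of 6 genes of GABA synthesis and transport, 5 were called higher and 1 lower. Gad2, for instance, had 4968 CPM against 363 CPM (8 of 8 and 6 of 13 cells). Of 16 interneuron subtype genes, 10 were called higher and 3 lower: the extracellular matrix gene Reln had 2042 CPM (8 of 8) against 0.210 CPM (0 of 13), the calcium-binding protein gene Pvalb 299 CPM (6 of 8) against 0.525 CPM (0 of 13), and the neuropeptide gene Npy 2673 CPM (8 of 8) against 87.0 CPM (4 of 13). Of 8 migration receptors and partners, 3 were called higher and 3 lower, among them Ackr3, a chemokine receptor gene, at 46.2 CPM (6 of 8) against 5.64 CPM (2 of 13).

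Cultured cortical neurons against cultured cortical astrocytes had 5 of 7 genes called higher, against 19.9% of all 17473 genes, and 1 lower, against 29.8%, with 49.7% of all genes called in either direction. The log2 ratios were 6.17 for Dlx1, 4.80 for Lhx6, 4.79 for Dlx6os1, 2.32 for Dlx2, 2.03 for Dlx5 and 0.16 for Dlx6. Maf ran the other way, with 23.8 CPM in neurons and 136 CPM in astrocytes (-2.47). The median was 2.32, against -0.08 for all genes. The Lhx6 value was that of 1 cell: without the top cell of each group it had 0 CPM in neurons and 0.00551 CPM in astrocytes. Dlx2 without its top cells had 7.05 against 5.30 CPM. Among the other lineage factors, 16 were measured, 7 called higher and 4 lower (median 0.69). Sp8 had 52.8 CPM (6 of 13 neurons) against 0.330 CPM (1 of 86 astrocytes), while Sox6 had 0.664 CPM (1 of 13) against 114 CPM (55 of 86). GABA synthesis and transport had 5 of 6 called higher and none lower. Gad1 had 1605 CPM against 0.353 CPM. Subtype genes had 6 of 15 higher and 1 lower, and migration genes 5 of 8 higher and 2 lower, such as Nrp1, a semaphorin receptor gene, at 52.4 CPM (3 of 13) against 155 CPM (65 of 86).

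**Figure D3:**
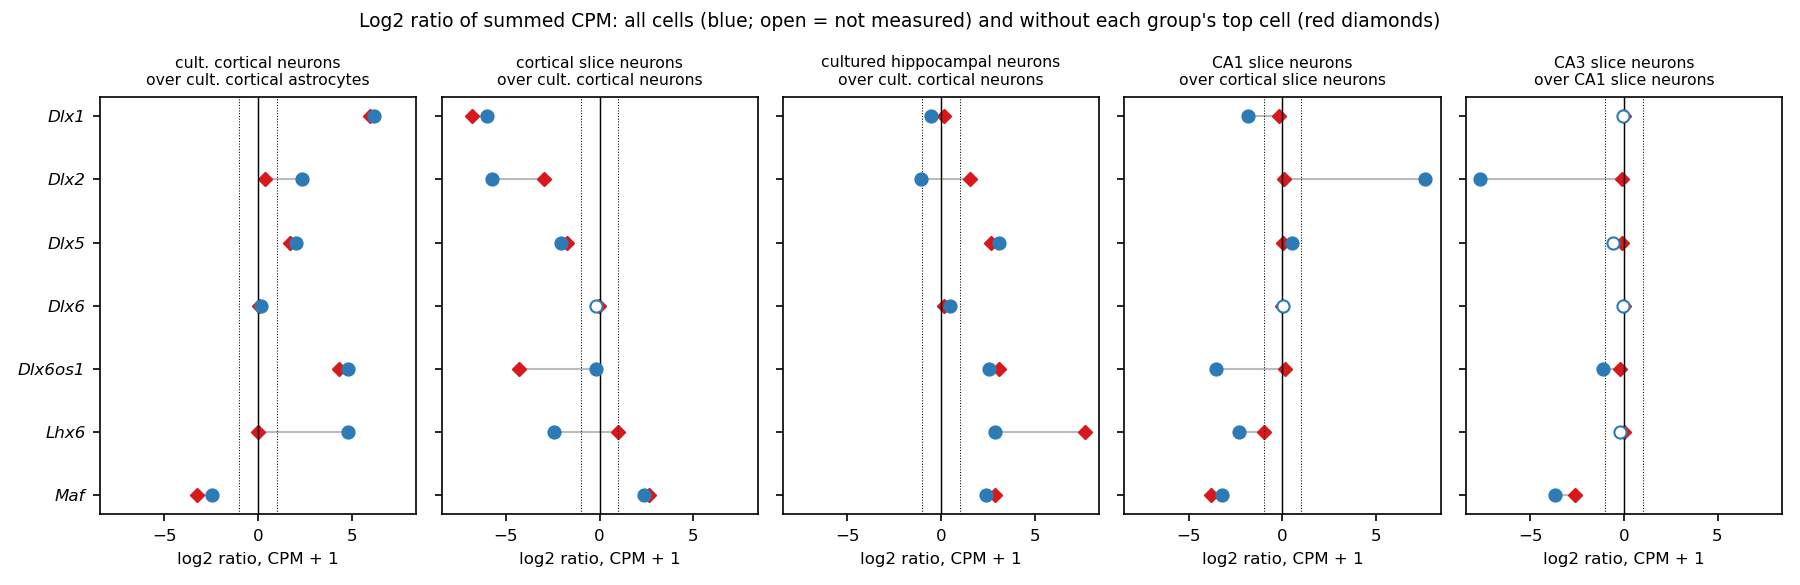
Log2 ratio of levels (CPM + 1) of each of the 7 genes in each of the 5 comparisons, with all cells (blue circles, open where the gene was not measured) and without the cell that held most counts of the gene in each group (red diamonds). Circle and diamond lie far apart where 1 cell carries the level, as for Lhx6 in cultured cortical neurons against astrocytes, at 4.80 and -0.01.

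Cortical slice neurons against cultured cortical neurons had 1 of 6 measured genes called higher, against 24.7% of all 13741 genes, and 4 lower, against 37% of them, with 61.7% of all genes called in either direction. Dlx1 had 2.62 against 233.5 CPM (log2 ratio -6.02), Dlx2 0.0526 against 55.8 CPM (-5.75), Lhx6 4.86 against 30.2 CPM (-2.41) and Dlx5 0.0657 against 3.51 CPM (-2.08). Maf had 128 against 23.8 CPM (2.38), and Dlx6os1 had 24.2 against 28.2 CPM (-0.21), which turned to 0.05 and 0.10 with TMM and DESeq2 scaling. The median was -2.25, against -0.24 for all genes. In the slice group Dlx1 was detected in 1 of 22 cells, against 9 of 13 in culture. The Lhx6 difference again turned on 1 cultured cell, since without the top cells it was 1.00 against 0 CPM. Of the other lineage factors, 13 were measured, 4 called higher and 6 lower. Sp9 had 0.0329 CPM (0 of 22) against 30.7 CPM (5 of 13). Of the 6 GABA genes 1 was called higher and 2 lower, and for each of the 6 the share of cells with detection was lower in slices. Gad2 had 769 CPM (5 of 22) against 363 CPM (6 of 13), but F1 held 73.5% of its slice counts and the slice level without F1 was 225 CPM. Subtype genes had 8 of 13 higher and 3 lower, and migration genes 3 of 8 in each direction. The potassium channel gene Kcnc1, a subtype gene, had 207 CPM (10 of 22) against 16.7 CPM (2 of 13). Gad1 was detected in only 7 of 22 cortical slice cells, so some slice cells with Kcnc1 held no detected Gad1.

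CA1 against cortical slice neurons had 1 of 6 measured genes called higher, against 22.6% of all 12666 genes, and 4 lower, against 39.8%, with 62.4% of all genes called in either direction. Dlx2 had 202 against 0.0526 CPM (log2 ratio 7.59), Dlx6os1 1.14 against 24.2 CPM (-3.55), Maf 12.9 against 128 CPM (-3.21), Lhx6 0.193 against 4.86 CPM (-2.30), Dlx1 0.0128 against 2.62 CPM (-1.84) and Dlx5 0.514 against 0.0657 CPM (0.51). Each of these rested on few cells. Without the top cell of each group Dlx2 had a log2 ratio of 0.06 and Dlx6os1 of 0.15, while Maf kept -3.82, at 5.08 against 84.6 CPM. The median was -2.07, against -0.37 for all genes. The other lineage factors had 2 of 9 called higher and 5 lower. Nr2f1, a nuclear receptor gene also active in excitatory neurons, had 31.4 CPM (2 of 14) against 215 CPM (14 of 22). GABA genes had none of 6 called higher and 2 lower, subtype genes 6 of 12 higher and 4 lower, and migration genes 2 of 6 in each direction.

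CA3 against CA1 neurons had 3 measured genes, called lower in 3 of 3, against 46.2% of all 9378 genes, and 0 higher, against 24.8%, with 71% of all genes called in either direction. Dlx2 had no count in CA3 against 202 CPM in CA1, at least 1847-fold lower with the same floor, and Dlx6os1 none against 1.14 CPM, at least 10.5-fold lower. Each of these CA1 levels was mainly 1 cell. Maf had 0.0729 CPM (0.00882 to 0.263) against 12.9 CPM (12.1 to 13.8), with a log2 ratio of -3.70, which was also the median, against -0.70 for all genes. GABA genes had 5 of 5 called lower, with Gad1 in 0 of 5 CA3 and 4 of 14 CA1 cells, and the other lineage factors 3 of 9 higher and 6 lower. Subtype genes had 1 of 10 higher and 8 lower, and migration genes 2 of 5 in each direction. With 5 CA3 cells, a share of up to 52.2% is allowed where no cell held a gene.

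Among cultured cortical neurons, the levels of the Dlx genes varied over days in culture and between the 3 or 4 cells of each age. Dlx1 reached 266 CPM at 6 days (2 of 3 cells), 539 CPM at 10 days (2 of 3), 169 CPM at 13 days (4 of 4) and 30.01 CPM at 15 days (1 of 3). By cell these were 482, 0 and 182 CPM at 6 days, 264, 0.154 and 768 CPM at 10 days, 9.45, 295, 307 and 33.6 CPM at 13 days and 0, 68.8 and 0 CPM at 15 days. Both 15-day cells without Dlx1, J5_18 and J8_23, held a larger share of the astrocyte than of the neuron markers, and J8_23 is also the 15-day cell with Maf. The part of this in the 15-day levels was not tested. Cells with high and with little or no Dlx1 stood side by side at 6, 10 and 15 days, and the cells of the ages overlapped. Leaving out 1 cell at a time moved the level between 85.6 and 374 CPM at 6 days, 48.9 and 728 CPM at 10 days, 70.4 and 246 CPM at 13 days and 0 and 45.3 CPM at 15 days.

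Dlx2 was found in the middle ages, at 0.621 CPM at 6 days (0 of 3 cells), 216.6 CPM at 10 days (2 of 3), 10.4 CPM at 13 days (3 of 4) and 0 at 15 days. At 10 days the cells had 0, 34.6 and 304 CPM, so the level without 2016R5N_23 was 28.2 CPM. Summed levels of Dlx6os1 were the most even over age, with 20.7, 19.6, 25.97 and 42.3 CPM at 6, 10, 13 and 15 days. At least 1 cell held Dlx6os1 at each age. Its levels at 6 and 15 days were each those of 1 cell and became 0 CPM without it. The 13-day level fell to 0.446 CPM without 2016R10N_23, and the 10-day level to 9.57 CPM at the lowest without 1 cell. The even sums thus rested mostly on single cells. Dlx5 was detected at 10 days (1.93 CPM, 1 of 3) and 13 days (8.00 CPM, 2 of 4), Lhx6 at 13 days alone (86.3 CPM, 1 of 4, and 0 without that cell) and Maf at 10 days (39.9 CPM, 1 of 3), 13 days (36.4 CPM, 1 of 4) and 15 days (5.37 CPM, 1 of 3). Maf without its 1 detected cell was 0 CPM at 10 days and 0.466 CPM at 13 days. The ages also differ in base-calling version, since the 6-day and 15-day cells were called with bcl2fastq and the 10-day and 13-day cells with its successor bcl2fastq2, so 10 and 13 days against 6 and 15 days cannot be told apart from that version.

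**Figure D4:**
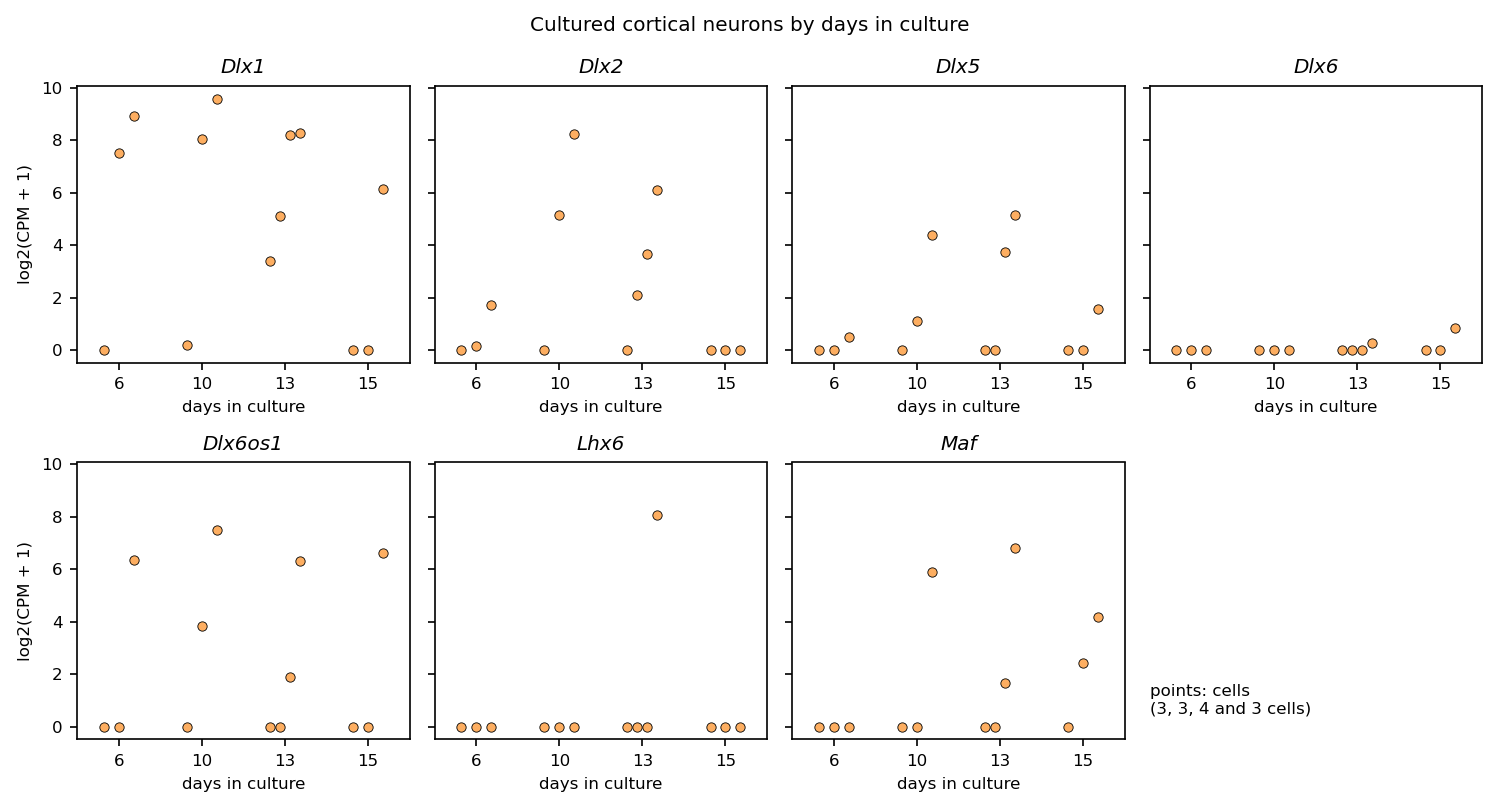
Level of each gene, as log2(CPM + 1), in single cultured cortical neurons (points) by days in culture (6, 10, 13 and 15). Dlx1 is present at each age and was detected in 2 of 3, 2 of 3, 4 of 4 and 1 of 3 cells, while Lhx6 appears in 1 cell of 13 days.

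Maf was set beside 12 microglia marker genes, because microglia make it too. At least 2 of the 12 markers were detected in 2 of 8 cultured hippocampal neurons, 1 of 5 CA3, 8 of 14 CA1, 10 of 22 cortical slice and 3 of 13 cultured cortical neurons, and in 16 of 86 astrocytes. The summed level of the 12 markers ran per cell from 0 to 36.2 CPM in cultured hippocampal neurons, from 0.610 to 311 CPM in CA3, from 0.253 to 20348 CPM in CA1, from 0.456 to 21430 CPM in cortical slices, from 0 to 2030 CPM in cultured cortical neurons and from 0 to 14190 CPM in astrocytes. The cultured hippocampal neurons, which all held Maf, were thus at the low end for the markers. Of the 7 cortical slice cells with Maf, 5 held at least 2 of the markers (P4 11 of 12, P2 11, P33 10, RS10 8 and P16 3), whereas F1 held 1 and F6 held 0. Another 5 cells with at least 2 markers held no Maf. In CA1, the 2 cells with most Maf, CA1_41 and CA1_20, held 0 of the markers. In astrocytes, 12 of the 63 cells with Maf held at least 2.

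Without the slice cells that held at least 2 markers, the log2 ratio of Maf was 1.98 for cortical slice against cultured cortical neurons, with 2.38 for all cells, and -1.18 for CA1 against cortical slice neurons, with -3.21 for all cells. These values rest on 1 cell, since F6 held 93.9% of the Maf counts of the 12 cortical slice cells left. Without F6 as well, Maf had 6.93 CPM in cortical slice neurons against 23.8 CPM in cultured cortical neurons (-1.64), and 42.2 CPM in CA1 against 6.93 CPM in cortical slice neurons (2.45), so each direction turned. The part of microglial RNA in the Maf levels of slices was not tested. Without the 16 such astrocytes the log2 ratio was -2.54 for cultured cortical neurons against astrocytes, with -2.47 for all cells. With cells called by bcl2fastq2 alone, the slice against culture value was 0.86 and no longer called.

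**Figure D5:**
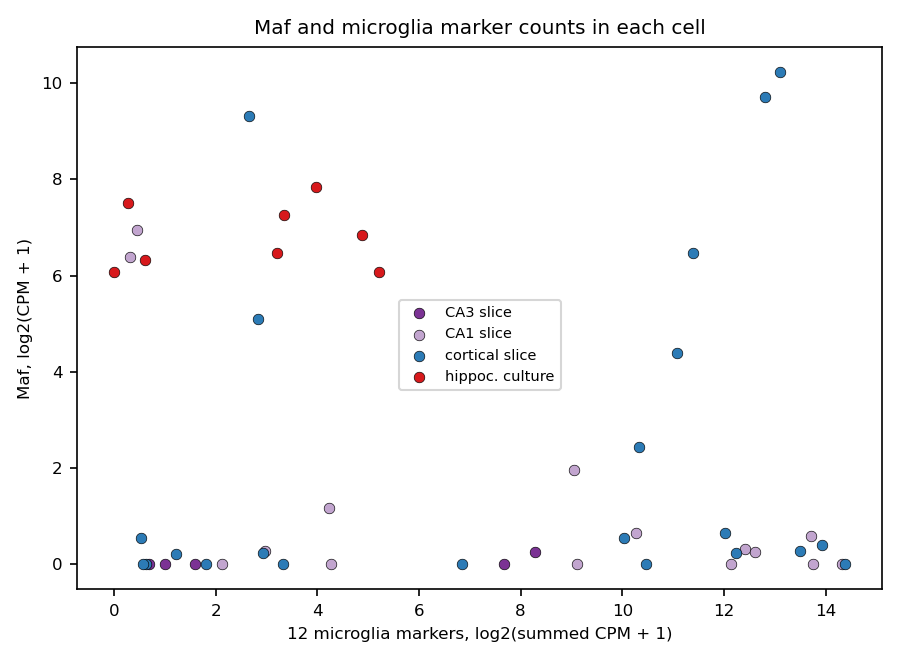
Maf on the vertical axis against the sum of 12 microglia marker genes on the horizontal axis, both as log2(CPM + 1), for CA3, CA1 and cortical slice neurons and cultured hippocampal neurons, 1 point per cell. Cultured hippocampal neurons hold Maf with marker sums of at most 36.2 CPM, while slice cells with high marker sums, up to 21430 CPM, lie both with and without Maf.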

How the data were processed

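RNA of 149 mouse brain cells was measured in 158 libraries. Per the labels, libraries came from polyA RNA with the Illumina TruSeq Stranded kit, and per the series design after 3 rounds of amplification. Per the submitters' processing notes, reads were base-called with bcl2fastq 1.8.4 or bcl2fastq2 2.17, aligned with STAR to mm10 (GRCm38) and counted with HTSeq. STAR and HTSeq versions, strand setting and annotation were not given in the sources used here. Raw counts were deposited by the authors for 21956 rows, with no normalization. All columns were mapped to samples by title (0 columns not mapped).

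Libraries of 9 pairs were summed, 8 by an added title suffix and 1 (J6_8min_20 with J6_4min_9) recognised from the counts. Their counts correlated with r of 0.945 to 0.999, against at most 0.621 with other libraries. CPM was computed over all rows, and cells were drawn down to 1000000 counts (seed 7) for detection. The members and gene lists were chosen with earlier results of these data known. Named genes were the 7 members, up to 4 genes per list and comparison with the largest difference in detection, and the 5 genes of highest Pearson r per member among genes detected in at least 6 neurons, of which a few are not reported here. Ratios between groups were set against pseudocounts of 0.1 and 5 CPM, no filter, TMM (edgeR 4.0.16) and DESeq2 1.42.0 scaling, and subsets of cells. Scripts (Python 3.11.15, NumPy 2.4.6, pandas 2.3.3, SciPy 1.17.1, R 4.3.3) were tested on simulated data. Counting intervals do not cover the variation between cells, animals or cultures, and PCR copies are not independent molecules.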

Additional observations from a re-analysis of the deposited data

Results flagged for a closer look

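In groups of 4 to 10 cells, a cell is given here when its gap to the next cell was more than Dixon's 95% critical value of the group's range. In all, 8 of 16 sets of values met this. Chance alone gives about 1 in 20 only for values that are near normal, which levels with most cells at 0 are not. A set with all cells but 1 at 0 meets the rule whatever the level of that cell. The 8 sets can therefore not be set against that rate. The 13-day cultured cortical neuron 2016R10N_23 gave 4 of them, with 264 CPM of Lhx6 (the other cells at 0), 110 CPM of Maf (next 2.15 CPM), 78.6 CPM of Dlx6os1 (next 2.68 CPM) and 0.209 CPM of Dlx6 (the others at 0). The 13-day cell 2016R11N_10 had 68.5 CPM of Dlx2, and the next cell had 11.5 CPM. The cultured hippocampal neuron M6S had 3.60 CPM of Dlx6, and the next cell had 0.330 CPM. In CA3, CA3_21 had 0.510 CPM of Lhx6, which is 1 count, and CA3-8 had 0.198 CPM of Maf, which is 2 counts. These CA3 values and the Dlx6 values of M6S and 2016R10N_23 lie below the level that counted as detection.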

How the results depend on the processing

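No paired analysis was possible because no animal, culture or donor is named in the labels, and each group counts as 1 sample. The number of genes called among the 7 was within 1.5 times of the value given except in these cases: 2 (6 with all cells) for cultured cortical neurons against astrocytes at 15 days only, 3 (5) for CA1 against cortical slices with a pseudocount of 5 CPM, 2 (5) for the same without the top cell of each group, and, for CA3 against CA1, 1 (3) without slice cells holding microglia markers and 1 (3) without the top cells. Leaving out each CA3 cell in turn gave 3 at the lowest and 3 at the highest. Without the top cells, 4 called log2 ratios turned: Lhx6 to -0.00793 in cultured cortical neurons against astrocytes, Lhx6 to 1.00 in cortical slices against culture, Dlx2 to 1.53 in hippocampal against cortical culture and Dlx6os1 to 0.15 in CA1 against cortical slices. Dlx2 in hippocampal against cortical culture turned to 4.77 at 15 days only, and Lhx6 in CA1 against cortical slices turned to 0.11 with bcl2fastq2 cells only. In the settings of 15 days only, the cortical neurons were called with bcl2fastq and the hippocampal cells and astrocytes with bcl2fastq2. The removal of top cells, of F6 and of marker-bearing astrocytes was chosen after seeing the data. TMM and DESeq2 scaling moved the median of all genes by 0.17 and 0.19 (cortical slices against culture), -0.26 and -0.16 (hippocampal against cortical culture), 0.20 and 0.28 (CA1 against cortical slices) and, for DESeq2, 0.29 (CA3 against CA1). Genes counted as detected in at least 1 cultured cortical neuron were 6 under each of 4 other rules and 7 with at least 1 count. Over the settings tried, called log2 ratios kept their sign in 284 cases and turned in these 6 and in 2 more, where Maf without marker-bearing slice cells and F6 had -1.64 for cortical slices against culture and 2.45 for CA1 against cortical slices. CA1_29, the cell of lowest depth, limits what can be said of CA1.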
